A study of Mus musculus with 3 samples.

Results

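The genes that build, take up, release and store cholesterol were examined as a set of 30, chosen by gene symbol among the 55357 features of each library, and all 30 had UMIs in every library. A UMI is a molecular barcode that counts 1 captured RNA molecule. Of the 30 genes, 8 encode the mevalonate and isoprenoid steps, 11 the steps from squalene to cholesterol, 6 the sensing and feedback of sterols, and 5 the lysosomal release, transport and storage of cholesterol. The cells came from lungs of wild-type C57BL/6 mice 24 h after intratracheal instillation, and were sorted as live CD45+ Ly6G- F4/80+ cells that carried CD11b or CD11c. In the LPS with Reg3g group the mice received LPS at 4 mg/kg together with 6 µg of Reg3g, in the LPS group LPS at 4 mg/kg alone, and in the PBS group 50 µL of phosphate-buffered saline. LPS, a bacterial cell wall lipid, gives a model of acute lung injury, and Reg3g is a secreted antimicrobial lectin. With 1 droplet library per group, from 3 mice whose cells were pooled, differences between groups have no replicate error to be tested against, and every interval below is a 95% interval that covers counting error only. Sex and age of the mice were not stated.

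Cells make cholesterol from acetyl-CoA by way of mevalonate, farnesyl diphosphate, squalene and lanosterol. The transcription factor SREBP-2, encoded by Srebf2, is carried by its escort Scap to the Golgi when sterols are low and then switches on most of the synthesis genes, while the Insig proteins hold it back when sterols are high. Lipoprotein cholesterol enters through lysosomes, where the acid lipase Lipa frees it and the Npc proteins pass it on, and Soat1 esterifies the surplus for lipid droplets. Alveolar macrophages clear surfactant, a cholesterol-containing lipid film, so their sterol traffic is high in the resting lung. Ch25h makes a soluble oxysterol that restrains SREBP-2, and Mylip is a ubiquitin ligase, induced by the sterol receptor LXR, that removes lipoprotein receptors.

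The libraries held 10213 barcodes and 60942042 UMIs with LPS and Reg3g, 15015 barcodes and 70474636 UMIs with LPS, and 8475 barcodes and 52354207 UMIs with PBS, and any pair of libraries shared 28 to 37 barcode sequences. After filtering, 9281, 13015 and 7860 cells remained in the same order of groups. They fell into 24 clusters, built with the 30 genes and 64 related genes left out of the clustering, of which 21 matched a cell class by their markers. Alveolar-macrophage-like cells numbered 4126 with LPS and Reg3g, 5058 with LPS and 3560 with PBS, and monocyte-like cells 4109, 5966 and 2266. The alveolar marker Marco had 964 CPM with LPS and Reg3g, 1092 CPM with LPS and 296 CPM with PBS in the alveolar class, where CPM is UMIs per 1000000 UMIs of all genes in that class and library. The neutrophil marker S100a8 had 95.1, 90.6 and 18.2 CPM in those alveolar cells, and its part in the results below was not tested. Other alveolar markers, Fabp1, Ear1 and Ear2, led cluster 4, which held 93.3% of the alveolar cells with PBS and 1.15% with LPS. Among the 10 leading genes, alveolar markers numbered 5 in clusters 4 and 19 and 4 in cluster 18. They numbered 2 in clusters 20 and 22 and 0 in clusters 15 and 21. Monocyte markers numbered 6 in cluster 6, 5 in cluster 3 and 4 in cluster 8. Cluster 2 had 2 of them, and clusters 10 and 14 had 0.

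The proximal promoters show what the synthesis and handling genes share in sequence. In the 250 bases before the RefSeq start (GRCm38.p6), windows were present for 25 of the 30 genes. The CCAAT box, searched as CCAAT on either strand, was in the windows of 22 of the 25 genes (88%), against 37.5% of all 27025 genes with a window. The classical sterol regulatory element of this pathway, searched as TCACNCCAC on either strand, was in that of Hmgcs1 alone, against 1.22% of all genes. The E-box, searched as CACGTG, was in the windows of 5 of the 25 genes (20%), against 6.86% of all genes. These matches are descriptions of the letters in each window and not measured binding sites. Printed in the direction of transcription, 5′ to 3′, are Hmgcs1 (chr13:119690101-119690350, plus strand), which holds both the sterol element and 3 CCAAT boxes, Mylip (chr13:45389492-45389741, plus strand) and Lipa (chr19:34527475-34527724, minus strand), the genes with the lowest ratios after LPS, and Ch25h (chr19:34475149-34475398, minus strand), the gene highest after LPS, which holds neither motif. Capitals mark TCACNCCAC or CCAAT on either strand, the second reading ATTGG on the printed strand where it lies on the opposite one.
Hmgcs1: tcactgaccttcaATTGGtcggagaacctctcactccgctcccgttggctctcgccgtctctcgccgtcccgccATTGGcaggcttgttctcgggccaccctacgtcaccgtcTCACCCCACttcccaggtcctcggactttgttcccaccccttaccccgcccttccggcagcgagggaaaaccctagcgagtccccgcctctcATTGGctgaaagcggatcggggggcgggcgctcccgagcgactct
Mylip: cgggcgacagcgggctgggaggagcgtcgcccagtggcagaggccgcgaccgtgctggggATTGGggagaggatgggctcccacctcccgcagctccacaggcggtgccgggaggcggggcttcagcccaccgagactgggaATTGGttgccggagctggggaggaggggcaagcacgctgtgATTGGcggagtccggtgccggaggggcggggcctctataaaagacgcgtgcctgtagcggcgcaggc
Lipa: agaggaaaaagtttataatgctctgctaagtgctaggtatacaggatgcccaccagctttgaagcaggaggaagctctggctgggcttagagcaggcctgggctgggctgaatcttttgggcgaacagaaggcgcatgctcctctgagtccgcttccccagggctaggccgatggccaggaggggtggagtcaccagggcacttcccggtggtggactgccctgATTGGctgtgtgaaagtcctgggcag
Ch25h: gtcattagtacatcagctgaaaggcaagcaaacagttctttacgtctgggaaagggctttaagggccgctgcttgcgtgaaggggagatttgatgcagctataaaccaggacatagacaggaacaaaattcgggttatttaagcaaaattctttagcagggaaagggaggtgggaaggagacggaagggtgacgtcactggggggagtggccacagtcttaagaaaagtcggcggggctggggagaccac

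In alveolar-macrophage-like cells 24 h after LPS, the oxysterol-forming gene Ch25h was higher than with PBS (126 and 18.1 CPM) and the receptor-degrading ligase Mylip lower (12.9 and 86.5 CPM), most of the synthesis enzymes were modestly higher, and the lysosomal lipase Lipa and the lysosomal exporter Npc1 were lower. Of the 30 genes, 26 had a mean of at least 10 CPM over the 3 libraries in this class and were counted. At least 2-fold higher were 3 of the 26, where the background was 5.67% of 7271 genes, and at least 2-fold lower was 1, where the background was 11.6%. The 3 were Ch25h, Hsd17b7 and Fdft1, and their number depended on the scaling. It was 6 with median-of-ratios scaling (7.56% of all genes), 7 with trimmed means (9.59%) and 6 with cells thinned to 2000 UMIs (5.79%), where Fdps, Sqle and Dhcr7 joined them, and Pmvk as well with trimmed means. At a smaller threshold, 13 of the 26 were at least 25% higher (background 19.4%) and 7 at least 20% lower (background 42.7%). The median log2 ratio of LPS over PBS was 0.33 for the 26 genes and -0.22 for all 7271 genes. Under other scalings of the totals that all-gene median moved up by 0.21 or 0.34, so the ratios are best read against it.

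**Figure D1:**
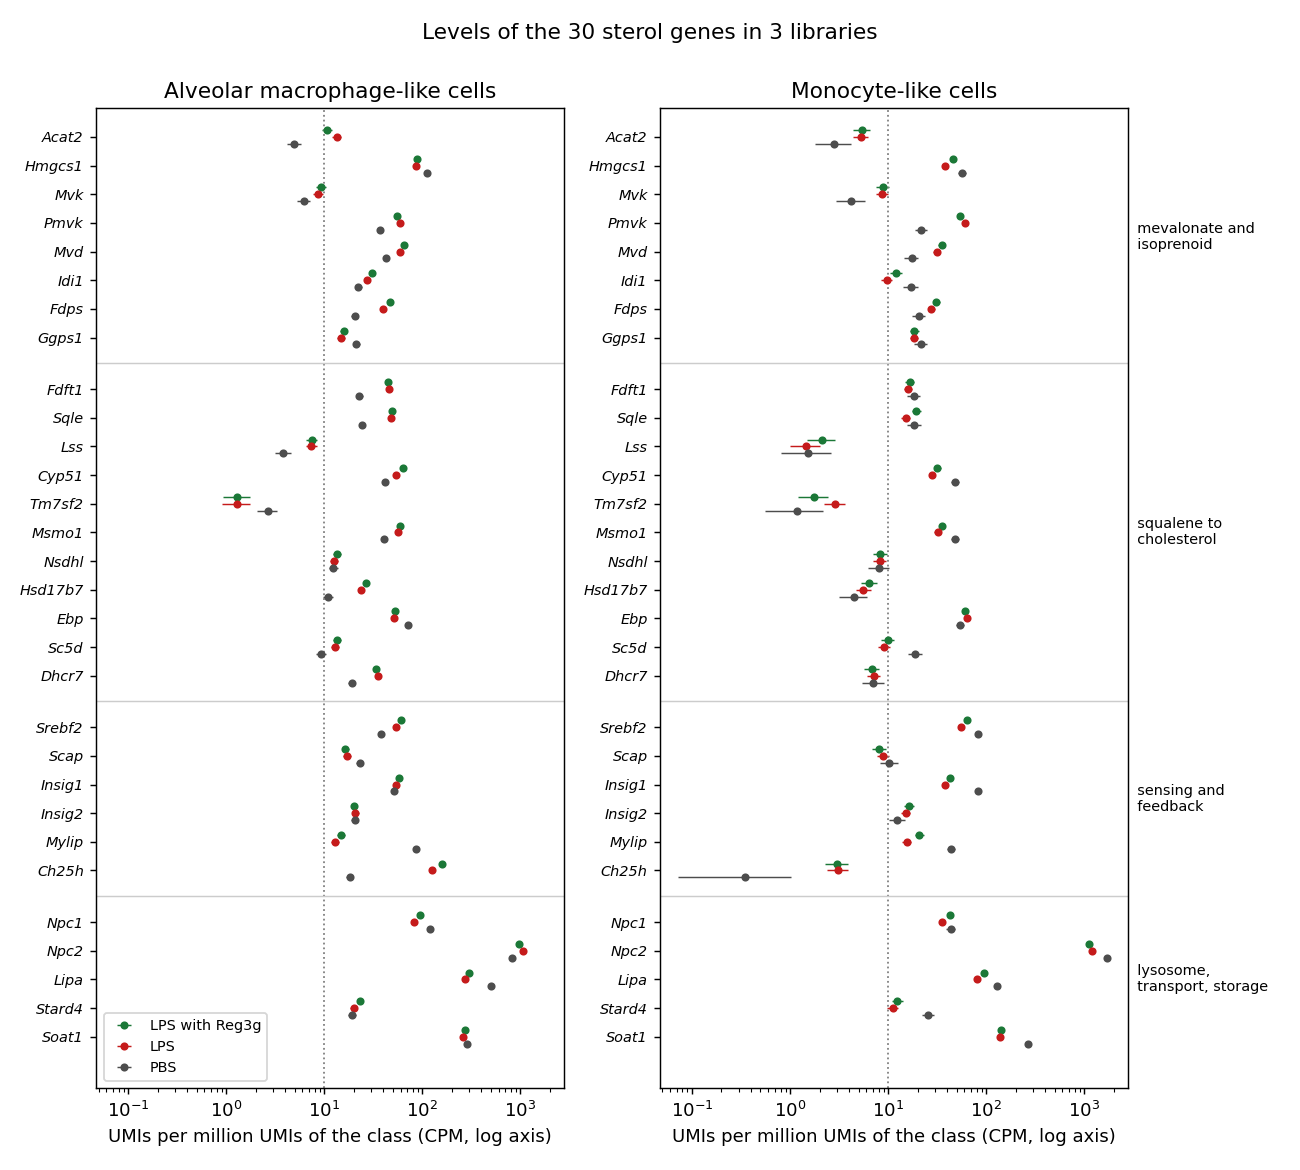
Levels of the 30 genes in alveolar-macrophage-like cells (left) and monocyte-like cells (right), as CPM on a log axis, with 1 point per library and exact Poisson 95% bars. The dotted line marks 10 CPM. Ch25h lies at 161 and 126 CPM in the LPS with Reg3g and LPS libraries and at 18.1 CPM with PBS in the alveolar class, and Mylip at 14.8, 12.9 and 86.5 CPM.

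The mevalonate and isoprenoid steps moved apart from each other. Of 8 genes, 6 were counted, 4 of them higher with LPS (36.5% of all genes) and 2 lower. Their median log2 ratio was 0.38, against -0.22 for all genes. Fdps, which makes farnesyl diphosphate, had 39.9 CPM with LPS and 20.6 CPM with PBS, a log2 ratio of 0.96 (0.81 to 1.10). Pmvk, the phosphomevalonate kinase, had 59.1 CPM with LPS and 37.3 CPM with PBS (0.66, 0.55 to 0.78). Mvd, the decarboxylase that follows it, had 59.2 CPM with LPS and 42.7 CPM with PBS (0.47, 0.37 to 0.58), and the isomerase Idi1 27.2 and 22.2 CPM (0.29, 0.14 to 0.44). The entry enzyme Hmgcs1, the most abundant of this group, went the other way at 85.9 CPM with LPS and 112 CPM with PBS (-0.38, -0.45 to -0.30). That difference depended on the scaling, and with trimmed means the log2 ratio of Hmgcs1 was -0.04. Ggps1, which draws farnesyl diphosphate off toward protein prenylation, was also lower, at 14.8 CPM with LPS and 21.2 CPM with PBS (-0.52, -0.69 to -0.34). The thiolase Acat2 and the mevalonate kinase Mvk stayed under the 10 CPM mean, at 13.4 and 8.69 CPM with LPS and 4.92 and 6.16 CPM with PBS.

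The steps from squalene to cholesterol were higher almost throughout. Of 11 genes, 9 were counted and 8 were above 0 (36.5% of all genes), with a median log2 ratio of 0.47, and 7 had intervals wholly above 0 (29.6% of all genes). Hsd17b7, the sterol ketone reductase, had 23.6 CPM with LPS and 11.01 CPM with PBS, a log2 ratio of 1.10 (0.91 to 1.30). Fdft1, the squalene synthase that commits the pathway to sterols, had 46.2 CPM with LPS and 22.9 CPM with PBS (1.01, 0.88 to 1.15). Sqle, the squalene epoxidase, had 47.7 and 24.5 CPM (0.96, 0.83 to 1.10). Dhcr7, the last reductase before cholesterol, had 35.0 CPM with LPS and 19.2 CPM with PBS (0.87, 0.72 to 1.02). Smaller differences were seen for the demethylating enzymes Cyp51 (53.4 CPM with LPS and 41.4 CPM with PBS, 0.37) and Msmo1 (56.0 and 40.7 CPM, 0.46) and for the desaturase Sc5d (12.9 and 9.31 CPM, 0.47). Nsdhl was level at 12.7 CPM with LPS and 12.4 CPM with PBS, with an interval of -0.18 to 0.24, but its log2 ratio was 0.37 with trimmed means. The isomerase Ebp, the most abundant of the group with PBS, was lower, at 51.7 CPM with LPS and 72.0 CPM with PBS (-0.48, -0.57 to -0.38). Lss and Tm7sf2 were under the 10 CPM mean. Summed over all 19 synthesis genes, the level was 656 CPM with LPS and 526 CPM with PBS, a log2 ratio of 0.32. Fdft1 overlaps Ctsb and Cyp51 overlaps Akap9 on the opposite strand, Ggps1 overlaps Arid4b, Npc1 overlaps Rmc1 and Mvd overlaps Gm20388 in the same way, and Fdps and Tm7sf2 overlap Gm43738 and Vps51 on their own strand. Whether counting used strand was not stated, so those values may hold reads of the partner.

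Sterol sensing and feedback held both extremes of the set. Ch25h had 126 CPM with LPS and 18.1 CPM with PBS, a log2 ratio of 2.80 (2.67 to 2.94) on 3943 and 512 UMIs. Mylip had 12.9 CPM with LPS and 86.5 CPM with PBS, a log2 ratio of -2.74 (-2.90 to -2.59) on 403 and 2444 UMIs. Srebf2, which encodes SREBP-2 itself, had 54.0 CPM with LPS and 38.3 CPM with PBS (0.50, 0.38 to 0.61), whereas its escort Scap had 17.1 and 23.0 CPM (-0.43, -0.60 to -0.27). With trimmed means the log2 ratio of Scap was -0.10. The genes of the retention proteins differed little when scaled to class totals. Insig1 had 54.4 CPM with LPS and 51.4 CPM with PBS (-0.02 to 0.18 on the log2 scale), and Insig2 20.8 and 20.4 CPM (-0.14 to 0.19). With trimmed means their log2 ratios were 0.42 and 0.37.

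Lysosomal release, transport and storage was led by lower values. Lipa had 270 CPM with LPS and 497 CPM with PBS, a log2 ratio of -0.88 (-0.92 to -0.84). Npc1, the membrane exporter of the lysosome, had 82.4 CPM with LPS and 119 CPM with PBS (-0.53, -0.60 to -0.45). Npc2, the soluble carrier that hands cholesterol to Npc1, was higher, at 1072 CPM with LPS and 823 CPM with PBS (0.38, 0.36 to 0.41). Soat1, the esterifying enzyme, had 262 CPM with LPS and 289 CPM with PBS (-0.14, -0.19 to -0.10), and its sign turned positive under both other scalings of the totals. Stard4, a cytosolic sterol carrier, had 19.9 and 19.2 CPM (-0.12 to 0.22), with a log2 ratio of 0.39 under trimmed means.

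The alveolar class itself changed make-up between the libraries. With LPS, 50.97% of its cells lay in cluster 20, led by Cxcl3, 30.1% in cluster 19, led by Car4 and Lpl, 9.51% in cluster 22, led by Cxcl chemokine genes and Tnf, and 6.15% in cluster 18, led by Tnf and Plet1. Cluster 4, led by Fabp1 and Ear1, held 1.15% of the alveolar cells with LPS and 93.3% with PBS. Across those 4 clusters of the LPS library, Ch25h ran from 51.4 CPM in cluster 18 and 83.9 CPM in cluster 19 to 148 CPM in cluster 20 and 151 CPM in cluster 22. Mylip was highest of the 4 in cluster 18, at 49.1 CPM, and lowest in cluster 20, at 7.70 CPM. The sum of the 19 synthesis genes was 696 CPM in cluster 20, 686 CPM in cluster 22, 611 CPM in cluster 19 and 462 CPM in cluster 18.

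Only clusters 4 and 15 held at least 50 cells of both the LPS and the PBS library. In cluster 15, the cycling cells, Ch25h had 128 CPM with LPS and 17.5 CPM with PBS (log2 ratio 2.87, 2.30 to 3.46), and Mylip 20.3 and 68.7 CPM (-1.76, -2.70 to -0.94). Lipa was lower in that cluster as well, at 279 CPM with LPS and 399.8 CPM with PBS (-0.52, -0.76 to -0.29). The summed synthesis genes did not differ there beyond counting error, at 505 CPM with LPS and 504 CPM with PBS. In cluster 4, which held 58 cells with LPS and 3321 with PBS, Ch25h had 30.8 and 17.7 CPM (-0.52 to 1.85 on the log2 scale), Lipa 326 and 504 CPM (-0.63, -0.98 to -0.30) and the summed synthesis genes 449 and 527 CPM. Among the LPS clusters of at least 50 cells, the synthesis sums above the 526 CPM of all alveolar cells with PBS were those of clusters 19, 20 and 22, in which PBS had fewer than 50 cells.

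**Figure D2:**
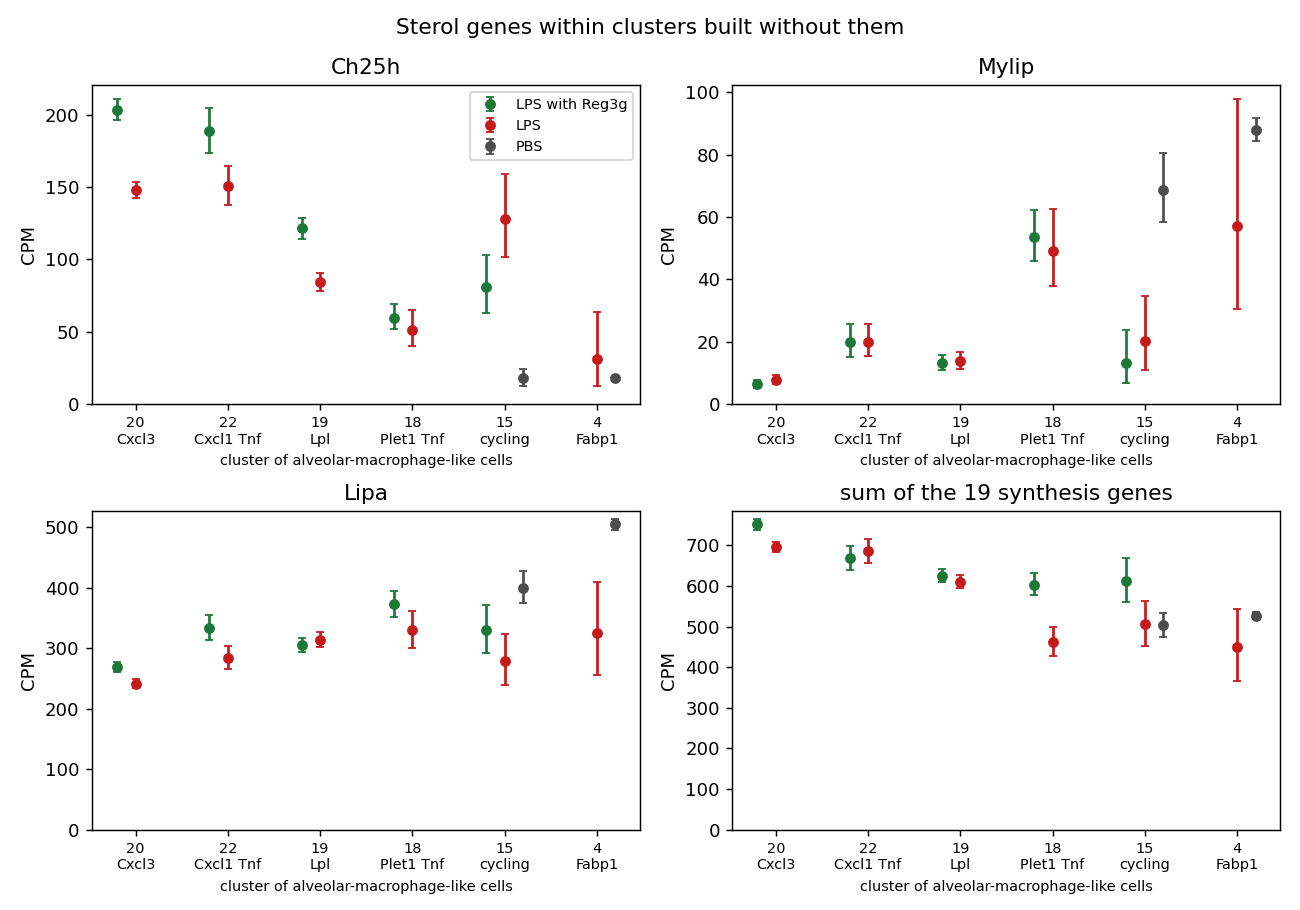
CPM of Ch25h, Mylip, Lipa and the sum of the 19 synthesis genes in each cluster of alveolar-macrophage-like cells, with 1 point per library with at least 50 cells in that cluster and exact Poisson 95% bars. Within the LPS library, Ch25h is 151 CPM in cluster 22 and 51.4 CPM in cluster 18, while Mylip is 7.70 CPM in cluster 20 and 49.1 CPM in cluster 18.

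The share of cells with a UMI was compared at 2000 UMIs per cell, which left out 75, 205 and 41 alveolar cells of the LPS with Reg3g, LPS and PBS libraries. Ch25h was then found in 24.0% (22.7 to 25.4), 19.7% (18.6 to 20.8) and 2.73% (2.22 to 3.32) of alveolar-macrophage-like cells of those libraries, by exact Clopper-Pearson intervals. In lymphoid cells of the same libraries, which served to show free RNA, it was found in 2 of 65, 5 of 86 and 0 of 89 cells. For the last, the floor of 3 counts gives a share of 3.37%, which is not an interval limit. In monocyte-like cells it was found in 0.56%, 0.51% and 0.11% (0.01 to 0.39). With LPS the monocyte interval lay below the lymphoid one, so the lymphoid share is not a level of free RNA common to all classes. The alveolar share with PBS was above the monocyte share and not above that lymphoid floor. Both alveolar shares after LPS were above the lymphoid and monocyte ones. Without thinning, the alveolar shares were 50.5%, 42.0% and 10.0%, at median depths of 7557, 6046 and 7674.5 UMIs per alveolar cell and of 2305, 1901 and 2127 UMIs per lymphoid cell. Mylip was in 2.94%, 2.18% and 15.7% of thinned alveolar cells. The lymphoid cells give no background for Mylip, since B cells held its highest level of all classes with PBS, at 190 CPM.

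Related genes outside the set were read in the same way, as background to the sterol genes. Of the 45 counted in alveolar-macrophage-like cells, 4 were at least 2-fold higher after LPS (5.67% of all genes) and 8 lower (11.6% of all genes). The sterol export and LXR list stood lowest in alveolar-macrophage-like cells after LPS, with 0 of its 8 genes at least 2-fold higher and 4 lower (median -1.03), and its summed level was 919 CPM with LPS and 2964 CPM with PBS. Abcg1, which exports cholesterol to lipoproteins, had 399 CPM with LPS and 1704 CPM with PBS (-2.09), the exporter Abca1 19.04 and 64.6 CPM (-1.76), and Nceh1, which hydrolyses stored cholesterol esters, 267 and 917 CPM (-1.78). Of 10 genes of acetyl-CoA supply and fatty acid synthesis, 6 were counted, 2 higher and 1 lower. The desaturase Scd1 had 50.3 CPM with LPS and 5.17 CPM with PBS (3.28), the fatty acid synthase Fasn 28.2 and 12.4 CPM (1.19), and Srebf1, which encodes the fatty acid counterpart of SREBP-2, 12.2 and 28.0 CPM (-1.20). Among 7 lipid droplet genes 6 were counted. Hilpda, an inhibitor of fat breakdown, was higher at 1.67 on the log2 scale. The triglyceride-forming Dgat1 and Dgat2 were lower at -1.45 and -1.42 on that scale. Dgat1, at 8.08 CPM with LPS, passed the 10 CPM mean through its level with PBS. So did Apoc1, at 9.07 CPM with LPS, which is among the 4 lower genes of sterol export. Scd1, at 5.17 CPM with PBS, passed it through the libraries with LPS, in which it was high. Of 10 users of isoprenoids 6 were counted, and 1 was higher, Nus1 of dolichol synthesis, at 476 CPM with LPS and 146 CPM with PBS (1.70). None of the 6 counted genes of SREBP processing and none of the 4 counted lipoprotein receptors differed 2-fold, and of 9 sterol transport genes only Osbpl9 did (-1.37). Of 4 other sterol hydroxylase genes, 0 reached a mean of 10 CPM.

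**Figure D3:**
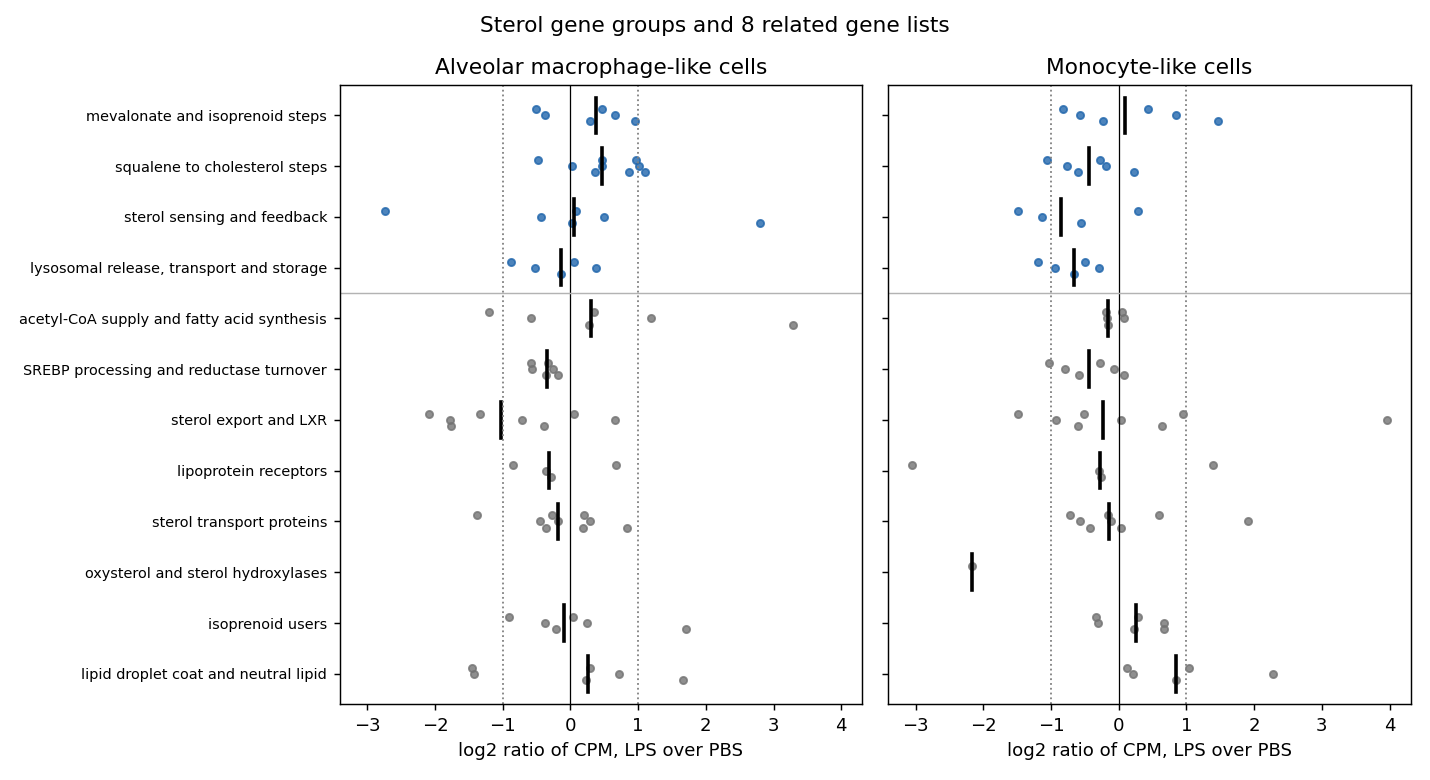
Log2 ratio of CPM, LPS over PBS, for each counted gene (points) of the sterol gene groups (blue) and 8 related lists (grey) in alveolar-macrophage-like and monocyte-like cells, with the list median as a black bar and 2-fold as dotted lines. In the alveolar class the median is 0.47 for the squalene to cholesterol steps and -1.03 for sterol export and LXR.

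In monocyte-like cells the feedback and lysosomal genes were mostly lower with LPS than with PBS, while the synthesis genes were divided. Of the 30 genes, 21 were counted. At least 2-fold higher was 1 (background 10.6% of 7265 genes) and at least 2-fold lower were 4 (background 7.41%), and the median log2 ratio was -0.56, against 0.04 for all genes. The median was 0.10 for the mevalonate steps, -0.44 for the squalene to cholesterol steps, -0.85 for sensing and feedback and -0.67 for lysosomal release and storage. Of the 12 counted synthesis genes, 4 had intervals above 0 (40.4% of all genes) and 5 below 0 (35.9% of all genes). Over the whole class the sum of all 19 was level, at 388 CPM with LPS and 390.1 CPM with PBS. Within that sum the mevalonate steps were higher, at 199 CPM with LPS and 162 CPM with PBS, and the squalene to cholesterol steps lower, at 189 and 228 CPM. Pmvk was the higher gene, at 60.4 CPM with LPS and 21.8 CPM with PBS, a log2 ratio of 1.47 (1.248 to 1.698), followed by Mvd (31.2 and 17.3 CPM, 0.85), Fdps (27.6 and 20.5 CPM, 0.43) and Insig2 (15.1 and 12.4 CPM, 0.28). Lowest were Mylip at 15.6 CPM with LPS and 43.8 CPM with PBS (-1.49, -1.70 to -1.28), Stard4 at 11.2 and 25.7 CPM (-1.20), Insig1 at 37.7 and 82.4 CPM (-1.13, -1.27 to -0.98) and Sc5d at 9.03 and 18.9 CPM (-1.06). Sc5d was under 10 CPM with LPS and passed the 10 CPM mean through its level with PBS. All 5 lysosomal and storage genes had intervals below 0, among them Soat1 at 138 CPM with LPS and 264 CPM with PBS (-0.94) and Npc2 at 1199.7 and 1688 CPM (-0.49). Hmgcs1 had 38.2 CPM with LPS and 56.6 CPM with PBS (-0.57), Idi1 9.65 and 17.0 CPM (-0.82), Cyp51 28.2 and 47.9 CPM (-0.77), Msmo1 32.0 and 48.4 CPM (-0.60), Srebf2 55.7 and 82.3 CPM (-0.56), and Ebp 63.4 and 54.1 CPM (0.23). Ch25h stayed near the detection limit in monocyte-like cells, with 57, 70 and 3 UMIs with LPS and Reg3g, LPS and PBS. In 7 of the 21 genes counted in both classes, the alveolar and monocyte intervals lay on opposite sides of 0, against 16.1% of the 6550 genes of any kind counted in both.

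The clusters behind the monocyte class also differed. With LPS, 31.6%, 30.2% and 26.0% of its cells lay in clusters 2, 3 and 10. Cluster 6, led by Ace and Cd300e, held 5.06%. Cluster 2 was led by Saa3 and Plac8, with Treml4 among its 10 leading genes, and cluster 3 by Saa3 and Ly6c2. Cluster 10 was led by Saa3 and Arg1, with Msr1 but 0 monocyte markers among its 10 leading genes. With PBS, 69.5% of the class lay in cluster 8, the classical monocytes, 29.8% in cluster 6 and 0.18% in cluster 10. Within cluster 6, the 1 cluster with at least 50 cells of both libraries, Insig1 had 33.4 CPM with LPS and 70.5 CPM with PBS (-1.08, -1.93 to -0.32), Stard4 8.34 and 33.6 CPM (-2.01, -3.93 to -0.58), Srebf2 35.4 and 110 CPM (-1.63, -2.44 to -0.91) and Soat1 158 and 229 CPM (-0.53, -0.91 to -0.18). Npc2 turned round in that cluster, at 848 CPM with LPS and 625 CPM with PBS (0.44, 0.27 to 0.61), and the interval of Mylip held 0 (-0.98 to 0.26). Ebp was higher at 68.8 CPM with LPS and 33.6 CPM with PBS (1.04, 0.38 to 1.67). The summed 19 synthesis genes, level over the whole class, were lower in cluster 6, at 325 CPM with LPS and 397 CPM with PBS (-0.29, -0.55 to -0.04).

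The related lists also ran differently in monocyte-like cells. Of the 43 related genes counted there, 5 were at least 2-fold higher (10.6% of all genes) and 4 lower (7.41% of all genes). Of 8 sterol export and LXR genes 1 was at least 2-fold higher and 1 lower. These were Nr1h3, which encodes an LXR, at 171 CPM with LPS and 11.02 CPM with PBS (3.96), and Apoe at 969 and 2721 CPM (-1.49). Of 5 counted lipid droplet genes 2 were higher, Hilpda at 125 CPM with LPS and 25.8 CPM with PBS (2.28) and Dgat2 at 46.4 and 22.6 CPM (1.04). Of 4 counted lipoprotein receptors, the scavenger receptor Msr1 was higher, at 165 CPM with LPS and 62.7 CPM with PBS (1.39), and the fatty acid and lipoprotein receptor Cd36 lower, at 13.5 and 113 CPM (-3.06). The sterol transport gene Tmem97 was higher (22.5 and 5.98 CPM, 1.91), and Rnf145 of SREBP processing (10.09 and 20.5 CPM, -1.02) and the hydroxylase Cyp27a1 (5.26 and 23.6 CPM, -2.16) were lower. Cyp27a1, at 5.70 CPM with LPS and Reg3g, passed the 10 CPM mean through its level with PBS alone. Tmem97, at 5.98 CPM with PBS, passed it through the libraries with LPS, in which it was high. In the lists of fatty acid synthesis and isoprenoid users, 0 genes differed 2-fold.

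**Figure D4:**
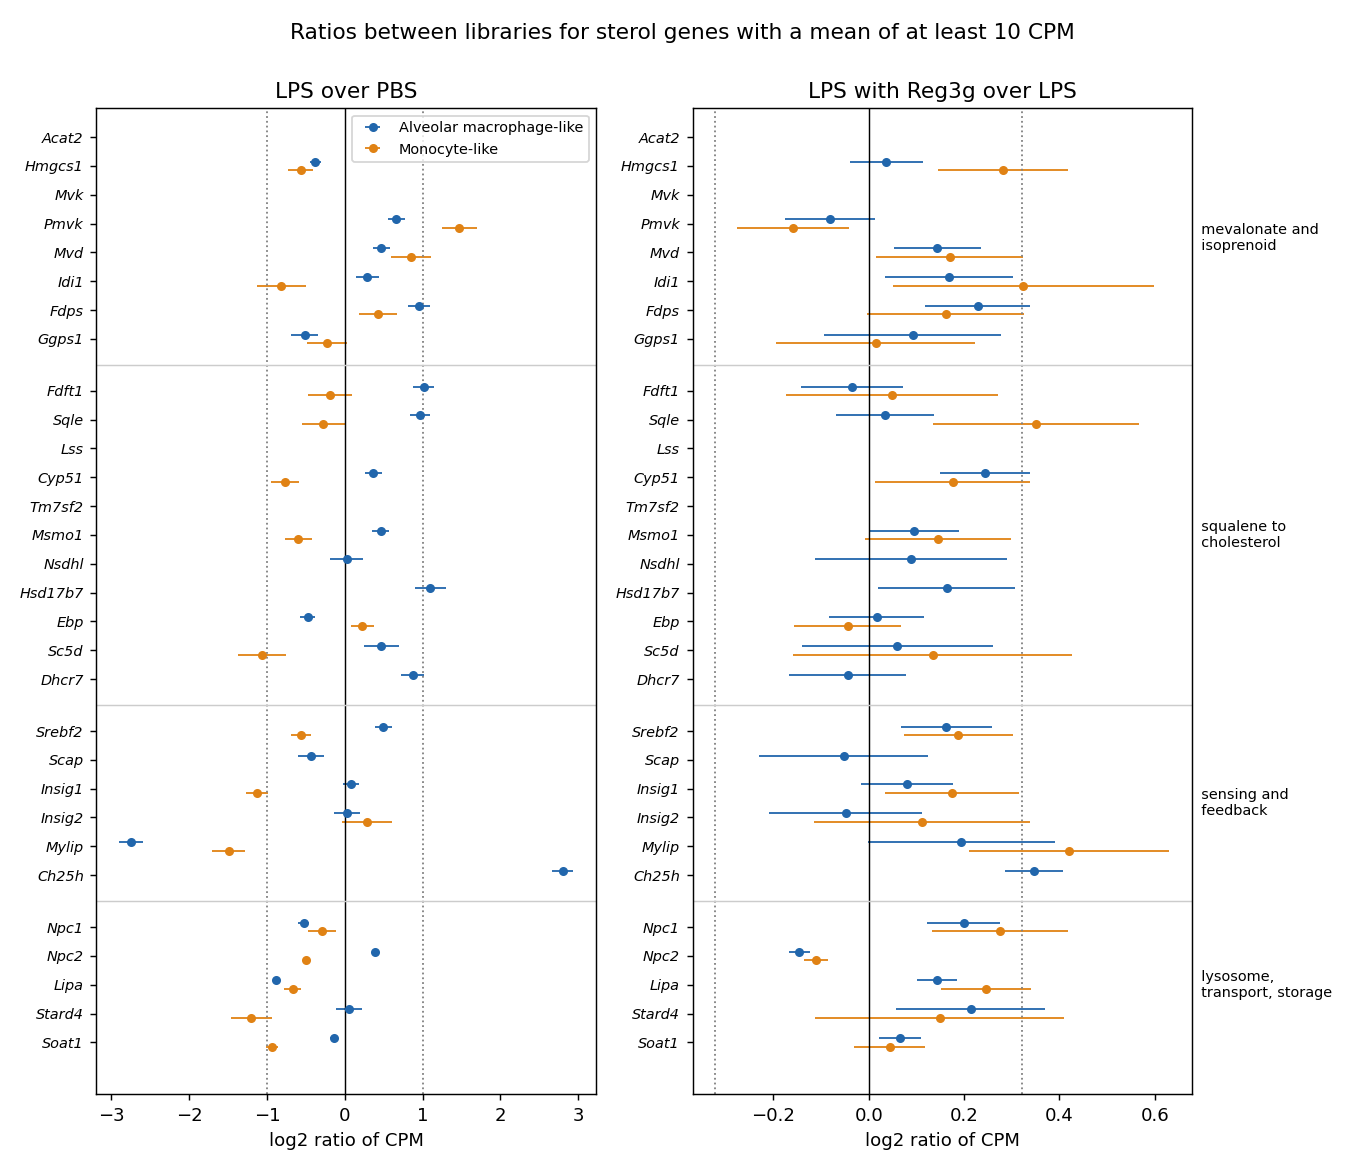
Log2 ratios of CPM with exact 95% counting intervals in alveolar-macrophage-like (blue) and monocyte-like (orange) cells, for LPS over PBS (left, dotted lines at 2-fold) and LPS with Reg3g over LPS (right, dotted lines at 25% higher and 20% lower, narrower axis). Genes without a point had a mean under 10 CPM in that class. For LPS over PBS, Cyp51, Msmo1, Idi1, Sc5d and Srebf2 lie above 0 in alveolar-macrophage-like and below 0 in monocyte-like cells.

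Adding Reg3g to LPS went with small differences in the set. In alveolar-macrophage-like cells 20 of the 26 genes were above 0 for LPS with Reg3g over LPS, where 60.1% of all genes were, with a median log2 ratio of 0.09, against 0.04 for all genes. Of the 20, Hmgcs1, Sqle and Ebp fell below 0 under both other scalings. At least 25% higher was 1 (background 5.2%) and at least 20% lower were 0 (background 2.2%), and 12 intervals lay above 0 (29.5% of all genes) and 1 below (17.2%). That 1 gene was Ch25h, with 161 CPM with LPS and Reg3g and 126 CPM with LPS, a log2 ratio of 0.35 (0.29 to 0.41). It fell short of 25% under both other scalings. Within clusters, Ch25h was higher with Reg3g in cluster 19 (121 and 83.9 CPM, 0.53, 0.39 to 0.67), in cluster 20 (203 and 148 CPM, 0.46, 0.38 to 0.54) and in cluster 22 (189 and 151 CPM, 0.32, 0.15 to 0.50). The interval held 0 in cluster 18 (59.6 and 51.4 CPM, -0.19 to 0.63), and in the cycling cluster 15 Ch25h was lower with Reg3g, at 80.8 CPM against 128 CPM (-0.66, -1.15 to -0.18). Cluster 20, which had the highest Ch25h with Reg3g, held 43.6% of the alveolar cells with LPS and Reg3g and 50.97% with LPS, and cluster 18, which had the lowest of the 5, held 13.7% and 6.15%.

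After Ch25h came Cyp51 at 63.2 CPM with LPS and Reg3g and 53.4 CPM with LPS (0.24, 0.15 to 0.34), Fdps at 46.8 and 39.9 CPM (0.23, 0.12 to 0.34), Stard4 at 23.1 and 19.9 CPM (0.21), Npc1 at 94.6 and 82.4 CPM (0.20, 0.12 to 0.28) and Mylip at 14.8 and 12.9 CPM (0.19). Lipa had 298 CPM with LPS and Reg3g and 270 CPM with LPS (0.14, 0.10 to 0.19). Npc2 was the gene with an interval below 0, at 970 CPM with LPS and Reg3g and 1072 CPM with LPS (-0.15, -0.17 to -0.12), and its interval lay below 0 in clusters 18, 19, 20 and 22 too, at -0.11 to -0.12. Pmvk (-0.08), Insig2 (-0.05), Scap (-0.05), Dhcr7 (-0.04) and Fdft1 (-0.03) had intervals that held 0. The summed synthesis genes had 688 CPM with LPS and Reg3g and 656 CPM with LPS (0.07), and by cluster the difference was 0.38 in cluster 18 (603 and 462 CPM), 0.28 in cluster 15 (614 and 505 CPM), 0.11 in cluster 20 (752 and 696 CPM), 0.03 in cluster 19 and -0.03 in cluster 22. Outside the set, 45 related genes were counted in this class. Of them 2 were at least 25% higher (background 5.2%), Srebf1 (0.34) and the sterol transport gene Osbpl8 (0.33). At least 20% lower were 5 (background 2.2%). Scd1 had 19.6 CPM with LPS and Reg3g and 50.3 CPM with LPS (-1.36), and Hilpda 132 and 235 CPM (-0.83). The lipoprotein genes Apoc1 and Apoe had 4.64 and 33.5 CPM with LPS and Reg3g and 9.07 and 51.7 CPM with LPS (-0.97 and -0.62), and the triglyceride lipase Pnpla2 127 and 165 CPM (-0.38). Apoc1 was under 10 CPM in both of these libraries and passed the 10 CPM mean through its level with PBS alone.

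In monocyte-like cells 18 of the 21 genes were above 0 for LPS with Reg3g over LPS, where 58.7% of all genes were (median 0.16, against 0.04 for all genes). Of the 18, Ggps1, Fdft1 and Soat1 fell below 0 under both other scalings. At least 25% higher were 3 (background 6.74%) and at least 20% lower were 0 (background 3.68%). They were Mylip at 20.9 CPM with LPS and Reg3g and 15.6 CPM with LPS (0.42, 0.21 to 0.63), Sqle at 19.4 and 15.2 CPM (0.35, 0.14 to 0.57) and Idi1 at 12.1 and 9.65 CPM (0.32, 0.05 to 0.60). The count of 3 fell to 1, Mylip, under both other scalings and without cycling clusters, and to 1, Idi1, with cells weighted equally. Hmgcs1 followed at 46.4 and 38.2 CPM (0.28). Lowest were Pmvk at 54.1 and 60.4 CPM (-0.16), Npc2 at 1111 and 1199.7 CPM (-0.11) and Ebp at 61.4 and 63.4 CPM (-0.04), followed by Ggps1 at 18.5 and 18.3 CPM (0.01). Among monocyte clusters the summed synthesis genes were higher with Reg3g in cluster 3 (433 and 373 CPM, 0.22) and in the cycling cluster 14 (435 and 343 CPM, 0.34), and were within counting error in clusters 2, 6 and 10.

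Across classes of at least 50 cells, Dhcr7, Ch25h, Lipa and Soat1 were highest in alveolar-macrophage-like cells in each of the 3 libraries, and Pmvk and Idi1 in migratory-dendritic-cell-like cells, which travel toward lymph nodes. These ranks were within counting error of the next class for Dhcr7 with LPS and Reg3g and with LPS, where T or NK cells had 13.8 and 30.9 CPM, and for Pmvk with LPS and Reg3g, where type-2-dendritic-cell-like cells had 74.0 CPM. The other 24 genes had no class that was highest in all 3 libraries. In the migratory cells (138, 529 and 107 cells with LPS and Reg3g, LPS and PBS), Idi1 had 83.5, 79.9 and 229 CPM. Hmgcs1 had 71.4, 35.1 and 183 CPM in these cells, Cyp51 59.2, 58.0 and 139 CPM, and Pmvk 97.2, 145 and 146 CPM. With PBS the migratory cells held the highest level of these 4 genes among the classes, against 22.2 CPM of Idi1, 112 CPM of Hmgcs1, 41.4 CPM of Cyp51 and 37.3 CPM of Pmvk in the alveolar class. Interstitial-macrophage-like cells (126, 153 and 467 cells with LPS and Reg3g, LPS and PBS) carried Npc2 at 1511, 1565 and 1155 CPM and Mylip at 48.0, 64.7 and 134 CPM. Stard4 had 0 UMIs in their LPS cells and 43 in their PBS cells, and Ch25h reached 32.6, 15.7 and 10.6 CPM. Srebf2 was higher in type-1-dendritic-cell-like cells than in the alveolar class in each library, at 108 and 60.4 CPM with LPS and Reg3g, 104 and 54.0 CPM with LPS, and 159 and 38.3 CPM with PBS.

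**Figure D5:**
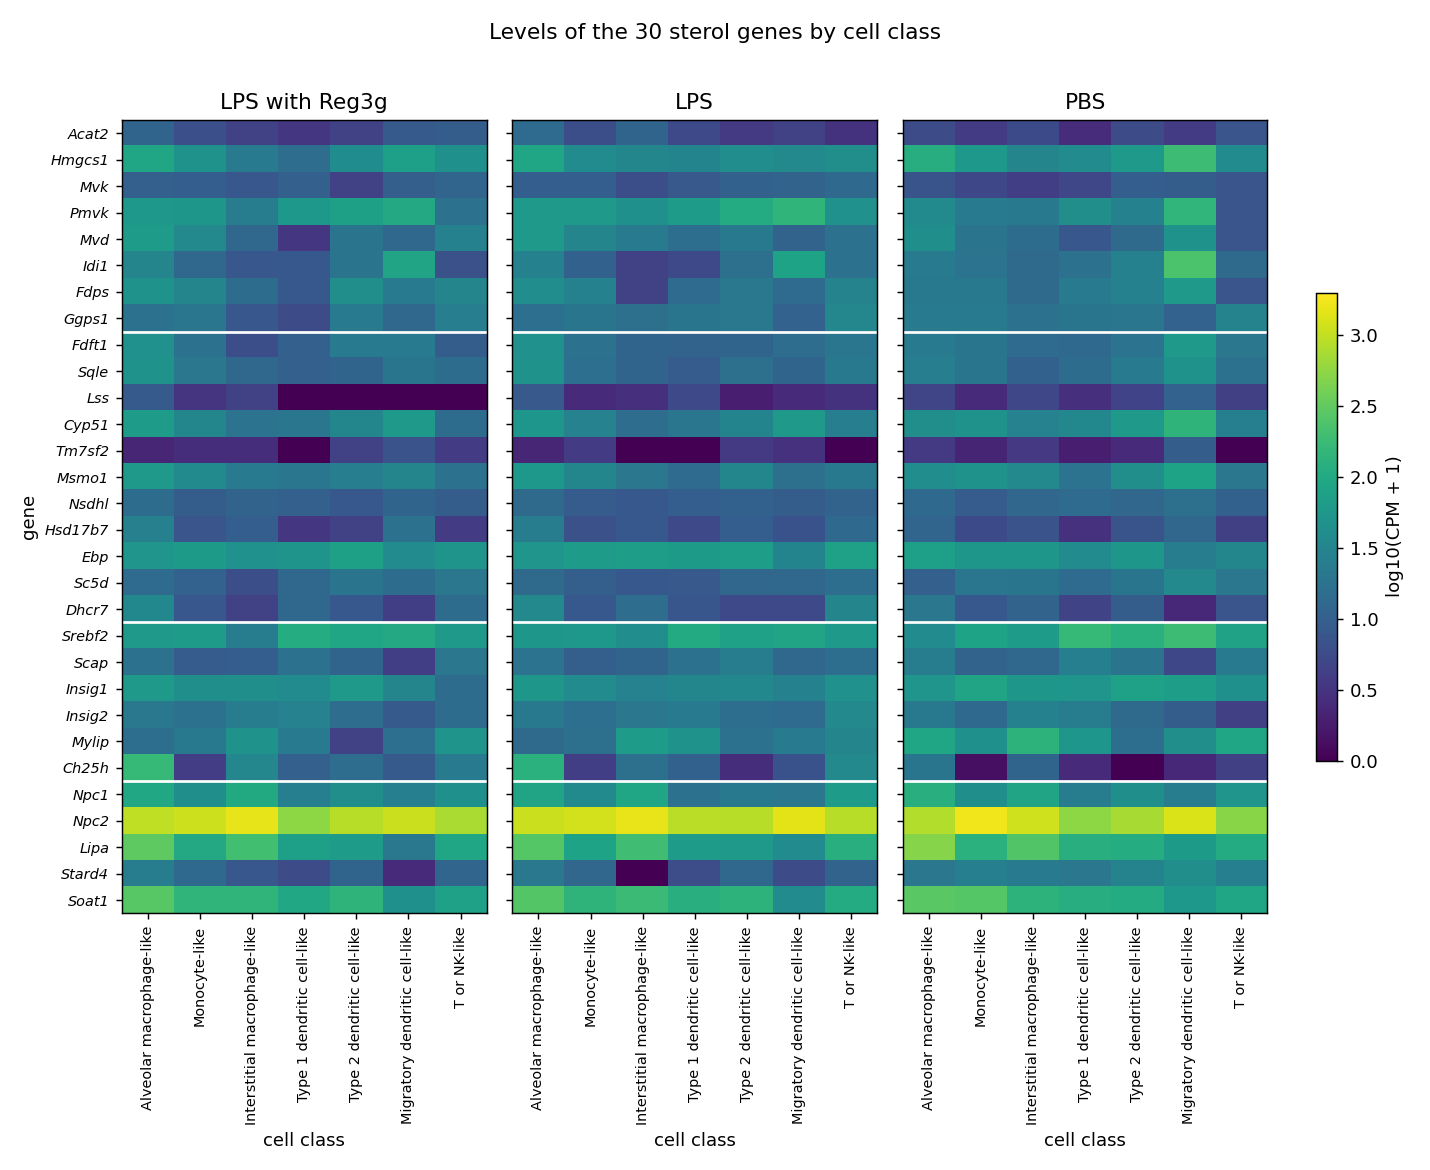
Levels of the 30 genes (rows, grouped by role with white lines) in 7 cell classes (columns) of each library, as log10(CPM + 1). Npc2 is the brightest row in each library, Ch25h is bright in alveolar-macrophage-like cells with LPS, and Idi1 reaches 229 CPM in migratory-dendritic-cell-like cells with PBS.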

How the data were processed

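The deposited files are raw UMI counts per gene and barcode, whole numbers in 10x matrix form, 1 matrix per library, with barcodes already filtered by the authors (lowest total 500 UMIs). Per the submitters' processing notes, reads were handled with bcl2fastq 5.0.1, Cell Ranger 9.0.1, Seurat 4.4.0 and the mm10 build. The libraries were Chromium GEM-X 3′, which count each molecule by its tail end whatever the transcript's length.

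Cells with under 500 genes, under 1000 UMIs or over 15% mitochondrial UMIs were dropped, as were the top Scrublet scores at 0.4% per 1000 barcodes. The rest were clustered jointly in scanpy 1.11.5 (2000 variable genes without the sterol and related genes, 30 components, 15 neighbours, Leiden resolution 1), and clusters were named from marker lists. Unnamed clusters were left out of the class comparisons. Within each library the UMIs of a class were added up per gene and scaled to 1000000 (CPM). Ratios carry exact conditional binomial intervals, levels exact Poisson intervals and shares Clopper-Pearson intervals, all at 95% and covering counting error only. No count model was run, as each group has 1 library. A count of 0 has a floor of 3 counts. The ratio code was tested on simulated data.

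Calls were ratios of at least 2-fold (LPS over PBS) or 25% higher or 20% lower (LPS with Reg3g over LPS) among genes with a mean of at least 10 CPM. The mean was taken over the 3 libraries, so a gene could pass through the libraries in which it was high. Genes described in full were the 6 highest and 6 lowest ratios per contrast in the alveolar class, the 4 highest and 4 lowest in monocyte-like cells, the 2 most abundant of each role, and up to 3 genes of each related list. Other genes of the set are named to account for all 30, and those in dendritic and interstitial cells, and values within clusters, were picked after their values were seen. The set, the lists and the rules were chosen with earlier results of these data known. Gene models were GENCODE M21, which matched 52081 of 55357 identifiers. Alternatives covered filters, doublets, clustering, scaling, thinning, cycling clusters and the CPM minimum.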

Additional observations from a re-analysis of the deposited data

Results flagged for a closer look

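In 7 of the 21 genes counted in both classes, LPS over PBS went opposite ways in alveolar-macrophage-like and monocyte-like cells, with counting intervals on opposite sides of 0, where 16.1% of the 6550 genes counted in both classes did so. The difference itself was not tested, since each group has 1 library. Given as the alveolar minus the monocyte log2 ratio, it was 1.53 for the desaturase Sc5d, 1.14 for the demethylase Cyp51, 1.11 for the isomerase Idi1, 1.06 for the methylsterol oxidase Msmo1, 1.06 for Srebf2 and 0.88 for the lysosomal carrier Npc2. For the isomerase Ebp it was -0.70, lower in alveolar and higher in monocyte-like cells. The opposite signs were present under both other scalings for all 7. In monocyte-like cells with LPS, Sc5d and Idi1 were under 10 CPM. The classes changed cluster make-up between LPS and PBS, and the part of that change was not tested; within monocyte cluster 6 the log2 ratio of Npc2 was 0.44, the sign seen in alveolar cells.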

How the results depend on the processing

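Of 396 recomputed counts, medians and shares, 350 moved by less than the set margin and 46 moved further. A change of sign was labelled only for medians past the call threshold, which none reached, so that label could not arise. For LPS over PBS, the alveolar lysosomal median changed sign under both other scalings, and the monocyte squalene median at the 50 CPM minimum. Percentages in brackets after a count are the shares of all genes called. In alveolar cells, the 2-fold higher count for LPS over PBS was 5 with the doublet rate doubled (5.73%). It was 6 with median-of-ratios scaling (7.56%) and 7 with trimmed mean scaling (9.59%). With cells thinned to 2000 UMIs it was 6 (5.79%), and with a 50 CPM minimum 1 (6.93%). The lower count was 0 with a 50 CPM minimum (10.4%) and 2 with no minimum (24.1%). With median-of-ratios scaling the medians were 0.59 (mevalonate), 0.27 (sensing) and 0.070 (lysosomal). With trimmed mean scaling they were 0.72, 0.81 (squalene to cholesterol), 0.39 and 0.20. With the 50 CPM minimum, sensing was 0.50 and lysosomal -0.34. For LPS with Reg3g over LPS, the count at least 25% higher was 0 with median-of-ratios (3.6%) and trimmed mean scaling (3.62%). It was 2 with thinning (8.79%), which put the sensing median at 0.28. In monocyte-like cells the 2-fold higher count was 2 with cells weighted equally (9.14%). It was 2, 0 and 4 with a 5 CPM, a 50 CPM and no minimum (11.1%, 10.3% and 9.03%). The lower count was 1 at 50 CPM (7.14%). The lysosomal median was -0.56 with trimmed means and -0.51 with equal weights. At 5 CPM the mevalonate, squalene and sensing medians were 0.43, -0.19 and -0.56, with no minimum 0.64, -0.074 and -0.39, and at 50 CPM squalene was 0.23. The count at least 25% higher with Reg3g was 1 with median-of-ratios (4.49%) or trimmed mean scaling (3.94%). It was also 1 with equal weights (7.63%) or without cycling clusters (6.94%), and 0 at 50 CPM (5.72%). The lower count was 1 with no minimum (18.5%). The Ch25h shares with LPS and Reg3g, LPS and PBS were 50.5%, 42.0% and 10.0% without thinning, and 13.4%, 10.9% and 1.46% at 1000 UMIs. Fewer genes pass a higher minimum and scaling shifts all ratios together; the cause of other moves was not tested.

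Among single genes, the sign never changed for 24 of 26 (LPS over PBS) and 20 of 26 (LPS with Reg3g over LPS) in alveolar cells, and for 21 of 21 and 18 of 21 in monocyte-like cells. No paired analysis was possible because each group has 1 library. Counting error limits values in classes of few cells, and differences between mice within a pool cannot be measured.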
